A study of Mus musculus with 16 samples.

Results

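Oxidative phosphorylation is carried out in the inner mitochondrial membrane by complexes I to IV of the respiratory chain and by ATP synthase. Complex I takes electrons from NADH, complex III passes them on to cytochrome c, and complex IV hands them to oxygen, while the protons moved on the way drive ATP synthase. Most subunits are encoded in the nucleus, a few core subunits are encoded in mitochondrial DNA, and some nuclear subunits of complex IV have a second form restricted to certain tissues. The nuclear genes were taken as the symbols that begin with Nduf, Uqcr, Atp5 or Cox followed by a digit from 4 to 8. A gene also needed a value in all 16 libraries and at least 1 CPM (a count scaled to a common library total) in 4 or more of them. Of 24681 listed symbols, 88 matched and 87 met the threshold. The members were thus chosen by their names and, through the threshold, by their own counts in these libraries, and how often a member passed it is given only as a description. The 87 genes comprised 36 complex I subunits, 7 complex I assembly factors, 8 complex III genes, 18 complex IV genes, 15 ATP synthase genes and 3 others.

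The genes were measured by RNA sequencing of 16 whole tumours, xenografts of AU565(pv) cells placed in a mammary fat pad of SCID hosts. AU565 is a human breast cancer line with amplified HER2, and SCID hosts lack mature T and B lymphocytes. The combination group received panobinostat, an inhibitor of histone deacetylases, at 15 mg/kg on days 0 and 1, together with trastuzumab, an antibody against HER2, at 10 mg/kg. The panobinostat group received the same panobinostat doses with PBS. The trastuzumab group received the same antibody dose with D5W, and the vehicle group received D5W and PBS. Each group held 4 mice, all injections were intraperitoneal, and tumours were collected 2 days after treatment began. The labels place the antibody on day 0 in one field and on day 1 in another. All groups rest on 1 human cell line in an immunodeficient host. The counts are for mouse genes. The share of human reads in them was not measured, and human reads that align to these conserved genes could add to their counts.

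Total counts ranged from 4848244 to 8140782 per library. In a whole tumour, fewer cells of a type and less RNA per cell cannot be told apart. Markers of fibroblasts, macrophages, endothelium and white adipocytes were present in every tumour. Summed white adipocyte markers (Adipoq, Plin1, Lep, Fabp4, Cidec and Lpl, 6 of 6 tested) ranged from 1666 to 6061 CPM in combination tumours and from 1314 to 8623 CPM in panobinostat tumours. They ranged from 1160 to 6417 CPM in trastuzumab tumours and from 1231 to 5045 CPM in vehicle tumours. Of the 8 skeletal muscle markers, Acta1 lay between 411 and 927 CPM, while Ckm and Myh4 stayed at or below 1.73 CPM in all tumours except vehicle mouse 29, which had 8.15 CPM of Ckm and 5.84 CPM of Myh4. Summed erythroid markers were 78.1 to 120 CPM in combination tumours, 137 to 205 CPM in panobinostat tumours, 241 to 812 CPM in trastuzumab tumours and 310 to 1125 CPM in vehicle tumours.

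The promoters of the members were searched for motifs of factors known to act on respiratory genes and for common promoter motifs. Windows of 300 bases, 250 before and 50 after the annotated start, came from RefSeq (GRCm38.p6) and were found for 69 of the 87 genes. Each motif was searched on both strands. The NRF1-type motif, GCGCA and GCGC with 1 base of any kind between them, is the kind bound by a factor known to drive nuclear respiratory genes. It occurred in 17 of the 69 genes (24.6%), against 5.19% of the 27025 genes with a window. That background, used for every motif, held genes of any level in these tumours. Members had to pass a threshold, so the shares are not matched for expression. The ETS-type motif CCGGAAG, the kind bound by GABP, occurred in 15 genes (21.7%), against 9.93% of all genes, and the YY1-type motif AAGATGG in 10 (14.5%), against 7.28%. TATAAA occurred in 6 genes (8.7%), against 15.7% of all genes, and CCAAT in 29 (42%), against 41.1%. None of the 5 motifs was found in 16 of the 69 genes. The 3 windows are shown because they hold different motifs: Cox6a1 has NRF1-type and ETS-type letters, Cox8a is the widely expressed form of the smallest complex IV subunit, and Cox8b is its tissue-restricted form. They lie on the minus strand at chr5:115348909-115349208 for Cox6a1, chr19:7217567-7217866 for Cox8a and chr7:140900397-140900696 for Cox8b. Capitals mark motif matches in either orientation.
Cox6a1: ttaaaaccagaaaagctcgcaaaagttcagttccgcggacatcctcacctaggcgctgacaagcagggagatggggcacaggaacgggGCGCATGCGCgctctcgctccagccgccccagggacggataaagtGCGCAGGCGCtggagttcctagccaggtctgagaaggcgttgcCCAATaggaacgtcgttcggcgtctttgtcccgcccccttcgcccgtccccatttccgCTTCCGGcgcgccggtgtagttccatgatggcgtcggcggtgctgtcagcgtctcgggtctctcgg
Cox8a: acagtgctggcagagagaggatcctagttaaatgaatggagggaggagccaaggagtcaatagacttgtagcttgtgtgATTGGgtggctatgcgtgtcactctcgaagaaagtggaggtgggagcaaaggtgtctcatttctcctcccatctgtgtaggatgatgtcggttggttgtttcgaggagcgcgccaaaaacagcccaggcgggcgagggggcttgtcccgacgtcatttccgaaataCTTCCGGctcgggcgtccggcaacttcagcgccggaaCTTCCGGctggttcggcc
Cox8b: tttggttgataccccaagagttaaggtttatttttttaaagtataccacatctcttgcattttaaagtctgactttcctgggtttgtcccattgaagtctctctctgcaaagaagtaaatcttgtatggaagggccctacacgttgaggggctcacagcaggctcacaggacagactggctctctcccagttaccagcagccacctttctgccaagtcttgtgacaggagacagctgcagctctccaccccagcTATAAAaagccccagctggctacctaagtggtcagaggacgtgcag
In Cox6a1 the NRF1-type matches begin 162 and 117 bases before the start, CCAAT 74 bases before and an ETS-type match 16 bases before. Cox8a has an ETS-type match 5 bases before the start and another at base 33 after it. Cox8b has no NRF1-type, ETS-type or CCAAT match and has TATAAA at base 5 after the annotated start. A match is a run of letters and was not tested for binding.

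Levels per gene length put most subunit genes above the assembly factors. Among complex I subunits the highest was Ndufa6, an accessory subunit, at 249.8 CPM per kb of transcript (mean over 16 tumours), and the lowest was Ndufa10, another accessory subunit, at 25.9 CPM per kb. Complex I assembly factors, which help build the enzyme and are not part of it, lay between 3.31 CPM per kb for Ndufaf4 and 14.8 CPM per kb for Ndufaf2, whose exons overlap a gene on the opposite strand over 1955 bases. The library kit does not mark strand, so the level of Ndufaf2 cannot be separated from that of its neighbour, and 18 of the 87 genes had such an overlap of over 100 bases. In complex III, Uqcrh, the hinge protein that contacts cytochrome c1, was highest at 209 CPM per kb, and Uqcrc2, a core protein, was lowest at 62.3 CPM per kb. In ATP synthase, Atp5g3, a gene for the proton-carrying subunit c, was highest at 927 CPM per kb, followed by the catalytic beta subunit Atp5b at 524 CPM per kb. Atp5f1, the peripheral stalk subunit b, was lowest at 85.5 CPM per kb. Of the other 3 genes, Atp5l2 stood at 35.1, Atp5sl at 12.5 and Atp5s at 2.79 CPM per kb. Atp5l2 is annotated as a processed pseudogene, so its count and that of Atp5l, whose copy it is named after, may be split by the authors' counting. Subunit genes of this kind commonly have near-identical copies elsewhere in the genome, and their counts carry that uncertainty.

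Complex IV genes spanned the widest range of levels. Cox8a was highest at 329 CPM per kb, ahead of Cox4i1, a large nuclear subunit, at 303 CPM per kb. Cox4i2, the form of subunit 4 known from lung and low oxygen, was lowest at 1.18 CPM per kb. Cox4i2 was also the member nearest the threshold, with 1 CPM or more in 5 libraries. Its counts were 1 to 14 in combination tumours, 4 to 17 in panobinostat tumours, 1 to 10 in trastuzumab tumours and 0 to 3 in vehicle tumours, and it did not pass the filter on low counts for the tests. Cox6a2 and Cox7a1 reached 1 CPM in 14 libraries and Cox6b2 in 15, while the other 83 genes did so in all 16. Just outside was the pseudogene Atp5l-ps1, with 0 to 3 counts in every library. The tissue-restricted forms were minor in all 16 tumours: as a share of the pair's summed CPM per kb, the median was 0.333% for Cox4i2 beside Cox4i1, 1.15% for the muscle form Cox6a2 beside Cox6a1, and 2.67% for the testis form Cox6b2 beside Cox6b1. It was 4.69% for the muscle form Cox7a1 beside Cox7a2 and 2.75% for Ndufa4l2, which low oxygen is known to induce, beside Ndufa4. Cox8b, the form of heart, skeletal muscle and brown fat in mice, had the largest share and the widest range, a median of 6.92% with tumours from 1.50% to 17.4%.

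The summed level of the 87 genes did not separate the treatments. It was 8032, 8104, 6793.5 and 10175 CPM in combination mice 2, 11, 16 and 22, and 8018, 8428, 7770 and 9525 CPM in panobinostat mice 4, 7, 8 and 13. It was 10023, 7764, 7926 and 6986 CPM in trastuzumab mice 12, 15, 20 and 24, and 7330, 10379, 7878 and 9178 CPM in vehicle mice 3, 6, 21 and 29. Every group held a tumour at or above 9525 CPM and one at or below 7770 CPM, so all groups overlapped. CPM are scaled here by the trimmed mean of M values (TMM). Group means were 8276 ± 1402 CPM for the combination, 8435 ± 776 CPM for panobinostat, 8175 ± 1299 CPM for trastuzumab and 8691 ± 1366 CPM for vehicle (SD, n = 4 each). The 8 panobinostat-treated tumours differed from the 8 without it by -77.5 CPM on average, or by 72.8 CPM in the other direction with CPM scaled to total counts, against a within-group SD of 1237 CPM. The same overlap held within each complex. Complex I subunits summed to 2324 ± 438 CPM in combination, 2364 ± 223 CPM in panobinostat, 2316 ± 374 CPM in trastuzumab and 2477 ± 466 CPM in vehicle tumours. Complex III genes summed to 779 ± 185 CPM in combination, 765 ± 94.6 CPM in panobinostat, 756 ± 157 CPM in trastuzumab and 806 ± 157 CPM in vehicle tumours. The differences between these means were smaller than the SDs within groups. Complex IV genes summed to 1538 ± 457 CPM in combination, 1481 ± 282 CPM in panobinostat, 1463 ± 395 CPM in trastuzumab and 1594 ± 413 CPM in vehicle tumours. ATP synthase genes summed to 3521 ± 311 CPM in combination, 3713 ± 186 CPM in panobinostat, 3526 ± 377 CPM in trastuzumab and 3700 ± 330 CPM in vehicle tumours. The assembly factors of complex I, which are scarce, summed to 78.2 ± 15.7 CPM in combination, 79.6 ± 3.98 CPM in panobinostat, 79.0 ± 7.30 CPM in trastuzumab and 82.7 ± 10.7 CPM in vehicle tumours. In each of these sums the combination group spanned a wider range than the panobinostat group, 1.50-fold against 1.23-fold between the highest and lowest tumour over all members.

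**Figure D1:**
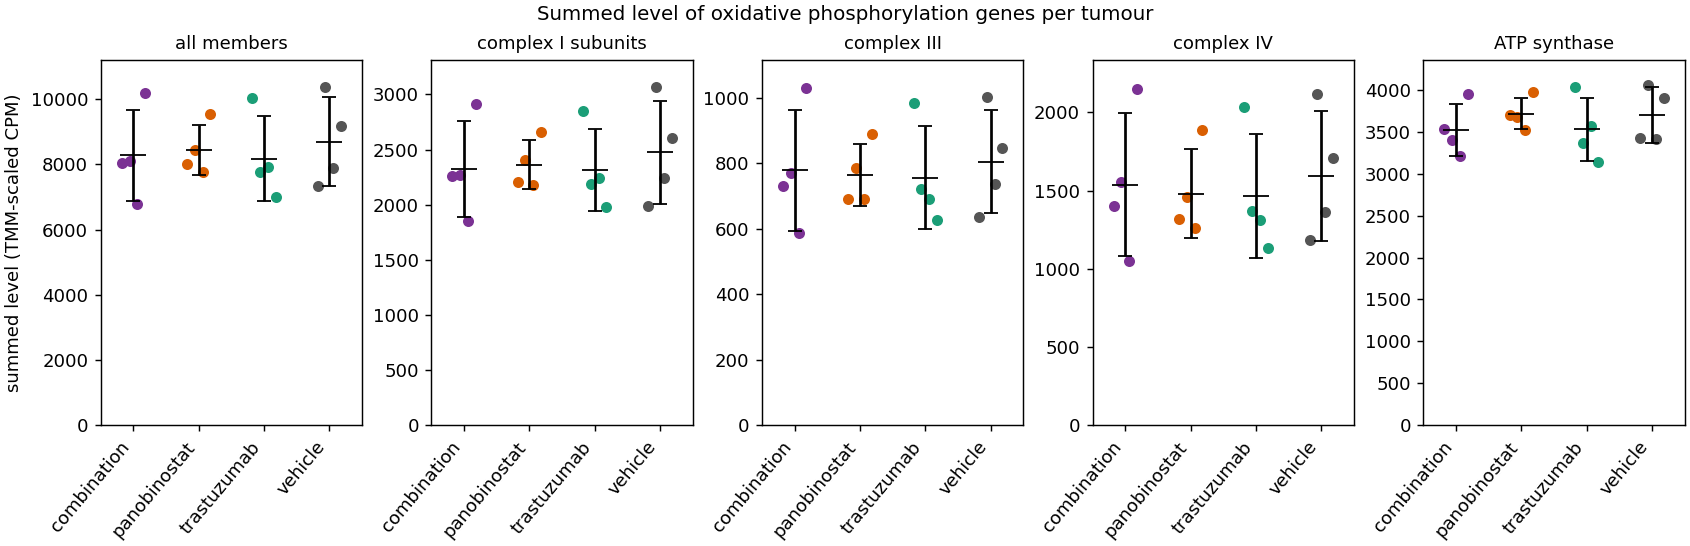
Summed TMM-scaled CPM of the oxidative phosphorylation genes, in all and for 4 complexes, with 1 point per tumour and the mean and SD of 4 tumours in black. The 4 groups overlap in every panel, and the highest tumour of each group is the same in all panels.

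No member was called in any of 8 comparisons by edgeR's quasi-likelihood F test, with p-values adjusted over all 15610 genes tested and a threshold of 0.05. The 86 members tested gave 0 calls for the combination against vehicle, where 2.2% of all genes (343) were called, and 0 for panobinostat against vehicle, where 0.192% (30) were called. They gave 0 for the combination against trastuzumab, where 0.628% (98) of all genes were called, and 0 for trastuzumab against vehicle, the combination against panobinostat and the interaction of the drugs, where 0 genes were called. Averaged over the other drug, the effect of panobinostat was called for 3.02% of all genes (471) and that of trastuzumab for 0.147% (23), with 0 members in both. DESeq2 and limma voom also called 0 members in all 8 comparisons. At an unadjusted p under 0.05 the members numbered 2 for the combination against vehicle, against 13.8% of all genes, and 0 for the panobinostat average, against 13.5% of all genes. The 2 for the combination against vehicle were Atp5l and Atp5sl, which were also the 2 for the trastuzumab average (5.94% of all genes). The 2 for the combination against panobinostat (4.48% of all genes) were Atp5l and Ndufv2, and the counts were 0 in panobinostat against vehicle (8.1%), trastuzumab against vehicle (3.52%), the combination against trastuzumab (9.26%) and the interaction (1.79%). These genes were chosen after their values were seen.

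Median changes of the members were small in every comparison; the first 3 below share the vehicle tumours. The median log2 change was -0.09 for the combination, -0.12 for panobinostat and -0.12 for trastuzumab against vehicle, and 0.03 for the combination against either single drug. Over all genes tested these medians lay between -0.01 and 0.01. The median was -0.04 for the panobinostat average, with 30 of 86 members positive, and -0.05 for the trastuzumab average, with 21 positive. By complex, the panobinostat average had a median of -0.06 for complex I subunits, 0.04 for the assembly factors, 0.00 for complex III, -0.02 for complex IV and -0.03 for ATP synthase, against a within-group SD of 0.31 for the members' median log2 level. For the interaction, the change under both drugs beyond the sum of the single drugs, the median was 0.15 with 70 of 86 members positive, and 62 of 86 intervals lay within a 2-fold change. The sign of each comparison's median over all members rested on single tumours. Without vehicle mouse 6 it was 0.05 for the combination, 0.03 for panobinostat and 0.02 for trastuzumab against vehicle, and 0.06 for the combination without combination mouse 16. Without combination mouse 22 it was -0.16 for the combination against panobinostat, -0.15 for the combination against trastuzumab and -0.05 for the interaction. The combination against panobinostat also turned negative without panobinostat mouse 4 or 8 (-0.01 without mouse 8), and the combination against trastuzumab turned to -0.05 without trastuzumab mouse 24. The panobinostat average was 0.03 without combination mouse 16, 0.04 without trastuzumab mouse 12 and 0.04 without vehicle mouse 6. The trastuzumab average was 0.02 without combination mouse 16, 0.01 without panobinostat mouse 13, 0.02 without trastuzumab mouse 24 and 0.03 without vehicle mouse 6. For 83 of 86 members the 95% interval of the panobinostat average lay within a 2-fold change either way, and for 79 within a 1.5-fold change. Against vehicle, the interval lay within a 2-fold change for 82 members under the combination, 82 under panobinostat and 83 under trastuzumab. Within a 1.5-fold change it lay for only 49, 38 and 45 members in that order. Among the 86 tested members, non-overlapping groups were found for 0 in each of the 7 comparisons between groups or averages. The share of all genes tested was 7.32%, 5.23% and 2.3% for the combination, panobinostat and trastuzumab against vehicle. The background was 2.79% for the combination against panobinostat, 5.07% against trastuzumab, 0.801% for the panobinostat average and 0.0448% for the trastuzumab average. Cox4i2, a member that was not tested, did not overlap between panobinostat (0.71 to 2.78 CPM) and vehicle tumours (0 to 0.48 CPM), on few counts. It met the 1 CPM threshold in panobinostat mice 4, 7 and 13, combination mouse 11 and trastuzumab mouse 12, and in no vehicle tumour. It thus became a member mainly through panobinostat-treated tumours, so this separation is partly set by the threshold and nothing is drawn from it.

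**Figure D2:**
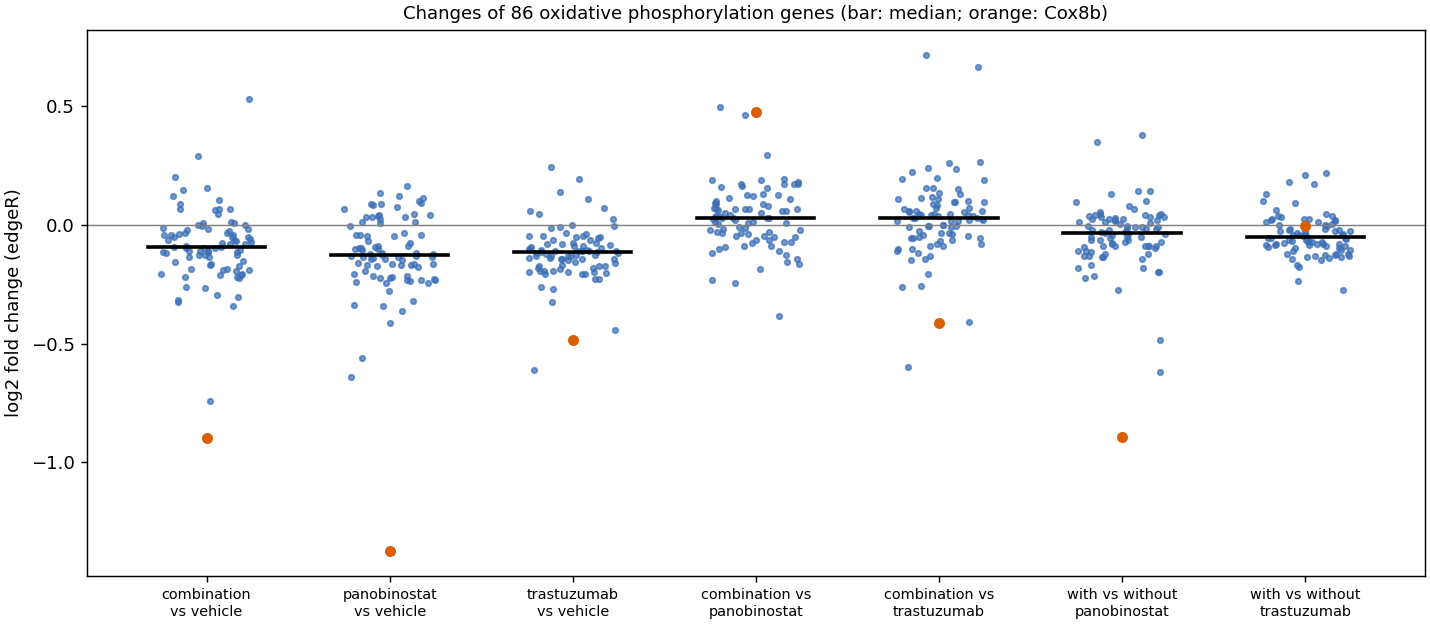
Log2 fold changes of the 86 tested oxidative phosphorylation genes in 7 comparisons, with 1 point per gene, the median as a bar and Cox8b in orange. Medians lie between -0.12 and 0.03, and no gene passed the adjusted threshold.

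Cox8b showed the largest fitted decrease with panobinostat and a wide spread. Its level was 2.58, 9.88, 1.90 and 22.4 CPM in combination mice 2, 11, 16 and 22 and 4.09, 11.3, 1.43 and 10.3 CPM in panobinostat mice 4, 7, 8 and 13. It was 30.1, 10.9, 5.0 and 3.30 CPM in trastuzumab mice 12, 15, 20 and 24 and 3.61, 32.6, 11.1 and 22.9 CPM in vehicle mice 3, 6, 21 and 29. Every group held a low tumour and all groups overlapped. The highest panobinostat tumour had 11.3 CPM, against 22.4 CPM in combination, 30.1 CPM in trastuzumab and 32.6 CPM in vehicle tumours. The panobinostat average was -0.89 on the log2 scale (SE 0.56) with an adjusted p of 0.543 by edgeR. Cox7a1 followed with a fitted change of -0.62 (SE 0.36, adjusted p 0.501), at 1.75 ± 0.65 CPM in combination and 1.91 ± 0.93 CPM in panobinostat tumours, against 2.65 ± 1.75 CPM in trastuzumab and 2.96 ± 1.69 CPM in vehicle tumours (SD, n = 4 each). Cox6a2 had a fitted change of -0.48 (SE 0.27, adjusted p 0.486) at levels of 0.58 to 2.91 CPM. The largest fitted increases were those of Ndufa4l2 (0.38, SE 0.24), Cox6b2 (0.35, SE 0.27) and Ndufv1 (0.14, SE 0.07), the subunit of complex I that binds NADH, with edgeR adjusted p of 0.551, 0.668 and 0.432 in that order. None of the 6 passed the test. Ndufa4l2 had 5.33, 7.70, 6.08 and 15.7 CPM in combination mice 2, 11, 16 and 22 and 5.51, 10.6, 11.4 and 6.22 CPM in panobinostat mice 4, 7, 8 and 13. It had 3.70, 5.21, 7.29 and 5.56 CPM in trastuzumab mice 12, 15, 20 and 24 and 7.02, 11.4, 7.11 and 7.22 CPM in vehicle mice 3, 6, 21 and 29. Trastuzumab tumours were at the low end, but all groups overlapped. The widely expressed partner Cox8a averaged 184 ± 55.5 CPM in combination and 177 ± 36.4 CPM in panobinostat tumours, against 172 ± 49.9 CPM in trastuzumab and 190 ± 46.6 CPM in vehicle tumours (SD, n = 4 each).

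**Figure D3:**
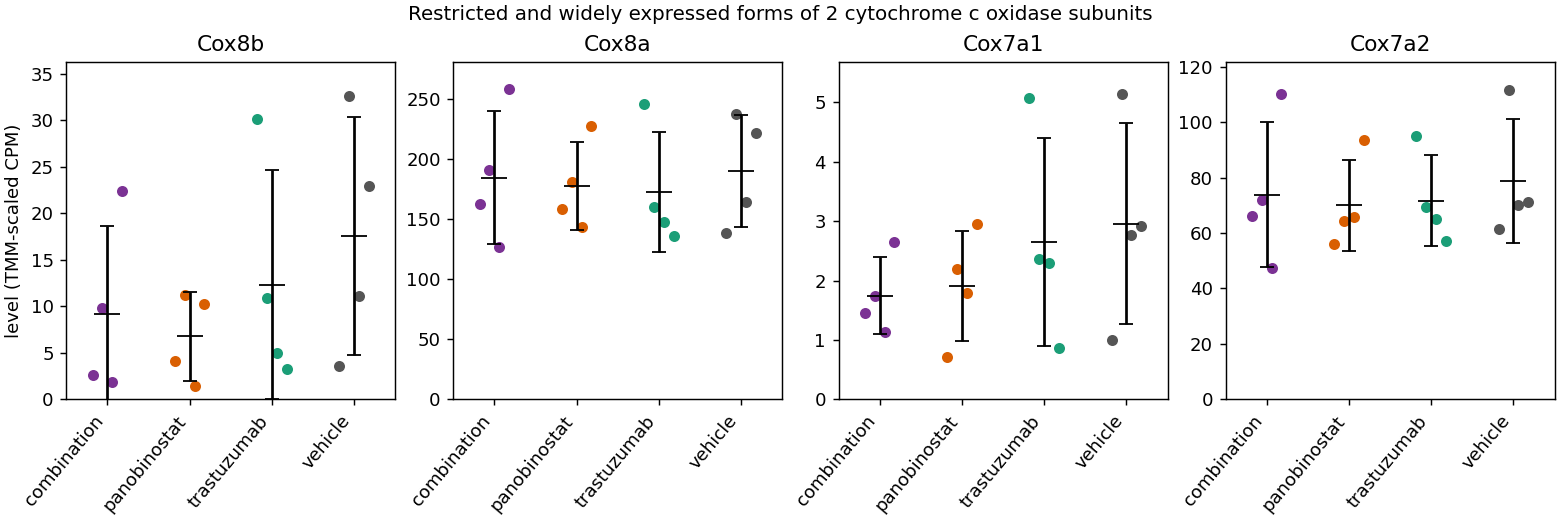
TMM-scaled CPM of the restricted forms Cox8b and Cox7a1 beside their widely expressed partners Cox8a and Cox7a2, with 1 point per tumour and the mean and SD of 4 tumours in black. Cox8b reaches 32.6 CPM in a vehicle tumour and 1.43 CPM in a panobinostat tumour, and the lower SD bar of some groups runs to 0 or below the axis.

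With the white adipocyte score of each tumour as a covariate, 5 members were called lower in the panobinostat average, against 2.76% of all genes called lower in that fit. They were Cox8b (-1.48, adjusted p 0.00152), Cox7a1 (-0.89, 0.0273), Ndufb10 (-0.45, 0.00498), Atp5k (-0.37, 0.0316) and Ndufa11 (-0.30, 0.0437), as log2 changes with edgeR adjusted p. The last 3 were chosen after their values were seen: Ndufb10 and Ndufa11 are accessory subunits of complex I, and Atp5k is subunit e of ATP synthase. The score was measured in the treated tumours. Its markers had a median log2 change of 0.38 in the panobinostat average, with 0 called, and moved with the members across tumours (r 0.87). How far the calls come from the adjustment itself was not tested. Cox8b and Ndufb10 were called in 16 of 16 fits that each left out 1 tumour, Cox7a1 in 9, Atp5k in 6 and Ndufa11 in 5. In the adipocyte-adjusted fit of all tumours, panobinostat against vehicle called Cox8b (-1.94) and Ndufb10 (-0.54) lower, against 0.775% of all genes. The combination against vehicle called 1 of 86 members lower, Cox8b (-1.25), a share below the 1.93% of all genes. Leaving out 1 tumour gave 2 to 18 of 86 members called lower in the panobinostat average (none higher), against 1.64% to 3.54% of all genes. The number was 18 without combination mouse 22 (3.54% of all genes) and 10 without panobinostat mouse 8 (2.3%). It was 2 to 5 without any other tumour. Where it was 2 of 86, the share was near that of all genes, 1.76% to 2.35%. The log2 total count as a covariate was an alternative added after the data were seen. With it, 2 of 86 members were called lower, Cox8b (-1.03, edgeR adjusted p 0.0165) and Ndufb10 (-0.33, adjusted p 0.049). That share is near the 2.2% of all genes called lower and is no result about the members as a set. For the combination against vehicle the fit with the log2 total count called 3 of 86 members lower, against 1.62% of all genes. They were Cox8b (-1.83), Ndufa11 (-0.45) and Ndufb10 (-0.54). Ndufb10 averaged 36.1 ± 13.2 CPM in combination and 34.1 ± 9.33 CPM in panobinostat tumours, against 39.7 ± 12.2 CPM in trastuzumab and 45.4 ± 13.8 CPM in vehicle tumours (SD, n = 4 each). Without a covariate its fitted change was -0.27 with an edgeR adjusted p of 0.628.

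Of the 5 markers of brown fat, a tissue known to use Cox8b and Cox7a1, those other than Cidea and Dio2 stayed at or below 3.47 CPM. The skeletal muscle markers other than Acta1 stayed at or below 8.15 CPM. Ucp1, the defining gene of brown fat, lay between 0 and 3.23 CPM and was at 0 in panobinostat mouse 8 and trastuzumab mice 15 and 24. Its highest levels were 3.23 CPM in vehicle mouse 29, 2.74 CPM in trastuzumab mouse 12 and 2.57 CPM in vehicle mouse 6. Cox8b was at 22.9, 30.1 and 32.6 CPM in these tumours, in that order. Combination mouse 22, with 22.4 CPM of Cox8b, had 0.76 CPM of Ucp1. The 5 brown adipocyte markers summed to 5.89 to 31.7 CPM in combination, 7.82 to 21.1 CPM in panobinostat, 7.65 to 27.0 CPM in trastuzumab and 7.02 to 23.5 CPM in vehicle tumours. Cidea, a lipid droplet gene among them, ranged from 0.35 CPM in trastuzumab mouse 24 to 23.0 CPM in combination mouse 22. Dio2 ranged from 2.95 CPM in panobinostat mouse 13 to 10.8 CPM in trastuzumab mouse 20. Of the 3 brown adipocyte markers that passed the filter, 0 were called in the panobinostat average, and their median log2 change was -0.71. The 4 tested skeletal muscle markers had a median of -0.28 and 0 calls, and the 6 white adipocyte markers a median of 0.38 and 0 calls. All 5 erythroid markers were called lower in the panobinostat average, with a median log2 change of -2.01. With the skeletal muscle score as a covariate, 0 members were called in the panobinostat average, and the part of brown adipocytes and erythroid cells in the changes of Cox8b, Cox7a1 and Ndufb10 was not tested.

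The members varied together between tumours of 1 group. Within its group, combination mouse 22 had the highest level for 77 of 86 tested members (89.5%), against 33.2% of all genes. Vehicle mouse 6 was highest for 73 members (84.9%; 33.9% of all genes), trastuzumab mouse 12 for 71 (82.6%; 32.1%) and panobinostat mouse 13 for 60 (69.8%; 30.0%). At the low end stood combination mouse 16 for 72 members (83.7%; 34.4% of all genes), vehicle mouse 3 for 69 (80.2%; 28.8%) and trastuzumab mouse 24 for 61 (70.9%; 23.3%). The panobinostat group had no single low tumour, with mouse 8 lowest for 38 members (44.2%; 24.7%) and mouse 4 for 32 (37.2%; 25.2%). Uqcr10, a small subunit of complex III and the member most like the rest, had 49.9, 50.6, 35.5 and 81.8 CPM in combination mice 2, 11, 16 and 22, and 41.8, 52.3, 41.3 and 58.6 CPM in panobinostat mice 4, 7, 8 and 13. It had 70.0, 46.3, 43.9 and 38.8 CPM in trastuzumab mice 12, 15, 20 and 24, and 37.9, 69.5, 48.6 and 61.9 CPM in vehicle mice 3, 6, 21 and 29. Each group thus had its own high tumour, and the groups overlapped.

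**Figure D4:**
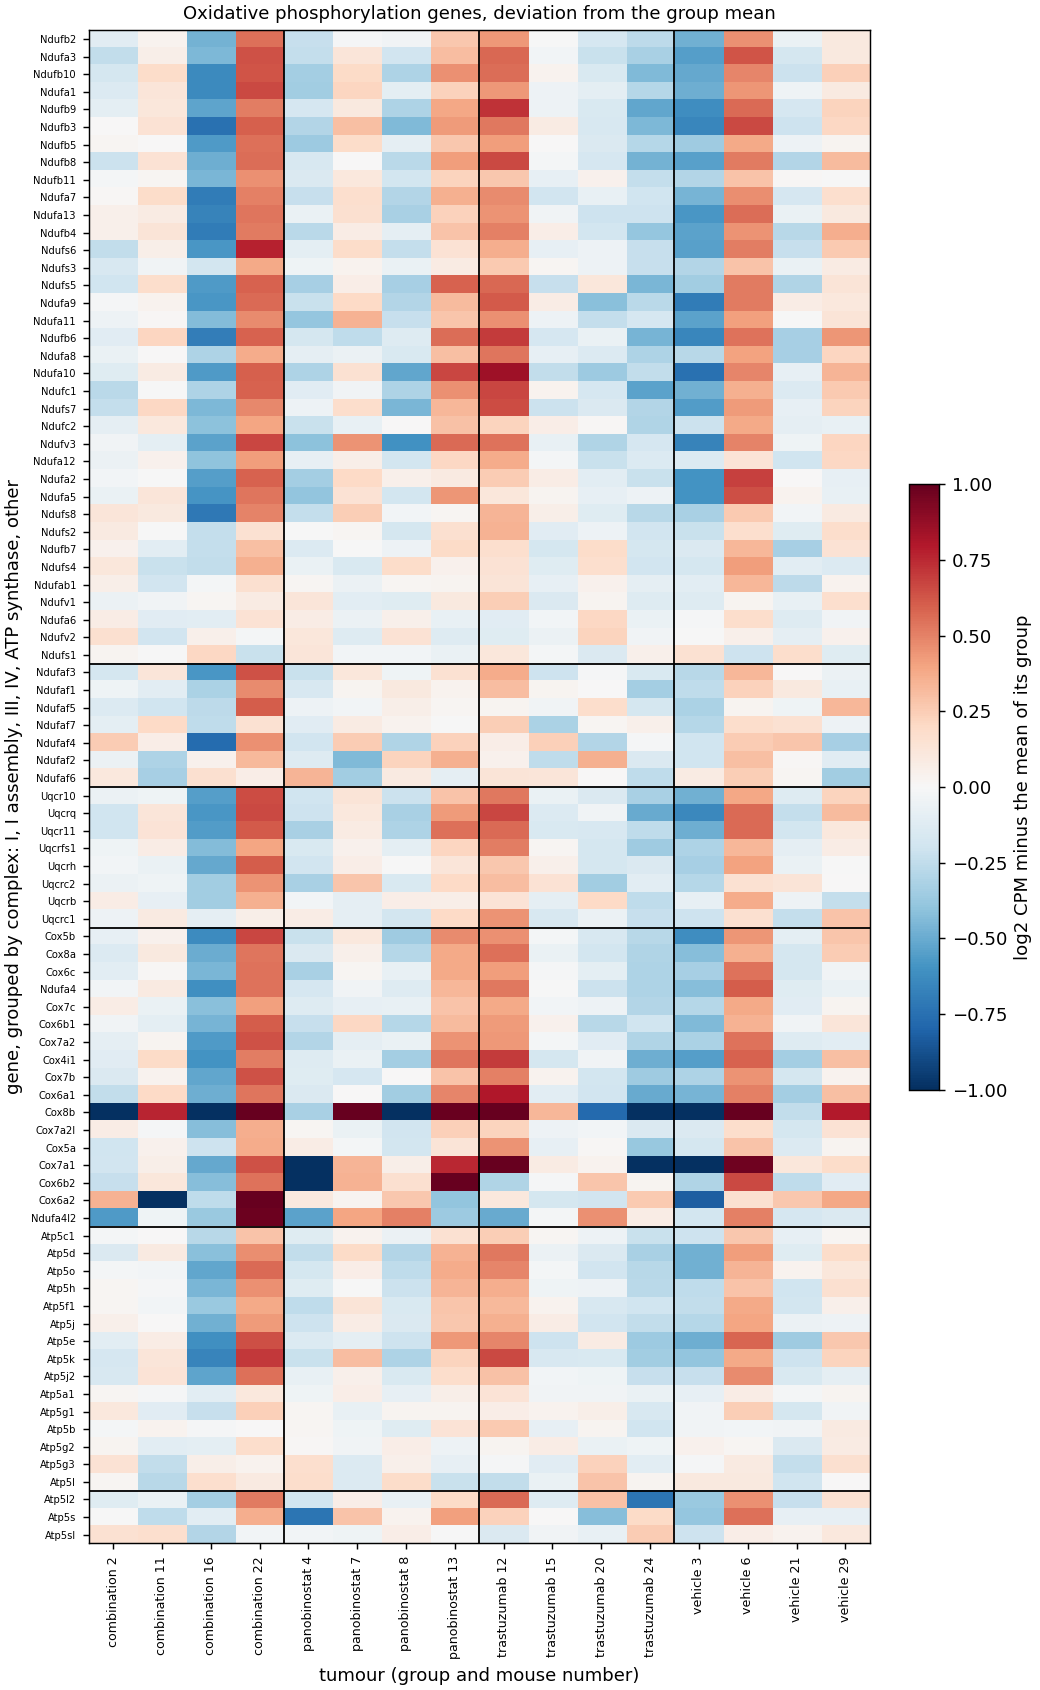
Log2 CPM of each tested gene minus the mean of its group, with genes in rows by complex and tumours in columns by group and mouse number; colours end at 1 unit either way, and Cox8b and some other scarce genes exceed that. Combination mouse 22, panobinostat mouse 13, trastuzumab mouse 12 and vehicle mouse 6 are high across most rows.

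This shared movement was measured as the correlation of a gene's deviation from its group mean with the average deviation of the members, leaving out the gene itself. The points are the same 16 libraries for every gene, so the values share depth and tissue content and are given as a description. The median r of the members was 0.93, and 53 of 86 exceeded 0.9, against 2.52% of the other 15524 genes (391), whose median r was 0.03. Complex medians were 0.93 for complex I subunits, 0.95 for complex III, 0.95 for complex IV and 0.96 for ATP synthase, and 0.65 for the assembly factors. The spread was also wider than usual: the median within-group SD of the log2 level was 0.35 for the members, 0.25 for all genes tested and 0.20 for the 9145 genes with a mean of at least 16 CPM. Between the lowest and the highest of the 16 tumours the median member of complex IV differed 2.38-fold, that of complex I 2.30-fold and that of ATP synthase 1.82-fold. Cox8b had the widest spread, an SD of 1.39, and Atp5a1, the alpha subunit of ATP synthase, the narrowest, 0.08.

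Some members did not move with the rest. The r was under 0.5 for 11 members and below 0 for 4, namely Ndufs1 (-0.68), Atp5l (-0.37), Ndufv2 (-0.30) and Ndufaf6 (-0.05). Ndufs1, the largest core subunit of complex I, had 113, 111, 128 and 95.5 CPM in combination mice 2, 11, 16 and 22, and 91.8 CPM in vehicle mouse 6 against 118 CPM in vehicle mouse 3. It was therefore low where most members were high in the combination and vehicle groups, while trastuzumab mouse 12, with 124 CPM, was the highest of its group. The others under 0.5 were Ndufa6, Ndufaf2, Cox6a2, Ndufa4l2, Atp5sl and the subunit c genes Atp5g2 and Atp5g3. Atp5g3 ranged from 514 to 673 CPM in combination, 651 to 803 CPM in panobinostat, 584 to 743 CPM in trastuzumab and 578 to 760 CPM in vehicle tumours. The partner subunit c gene Atp5g1 had an r of 0.71. Atp5l averaged 73.0 ± 9.39 CPM in combination tumours, against 95.3 ± 13.8 CPM in panobinostat, 87.3 ± 13.6 CPM in trastuzumab and 92.5 ± 8.57 CPM in vehicle tumours (SD, n = 4 each). Its combination level ranged from 59.7 to 81.3 CPM and its vehicle level from 80.5 to 98.7 CPM, which overlap, and its change against vehicle was -0.34 (SE 0.13) with an edgeR adjusted p of 0.239.

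Other mitochondrial genes followed the members across tumours. With the members' average deviation, over 16 libraries, the r was 0.96 for the 4 complex II genes, 0.92 for the 15 genes of the tricarboxylic acid cycle, 0.92 for the 13 tested cytochrome oxidase assembly genes and 0.87 for the 13 mitochondrially encoded genes (Spearman 0.89). All 4 complex II genes, all 15 cycle genes and all 13 mitochondrially encoded genes had an r above 0.5. The mitochondrially encoded genes summed to 35178 CPM in combination mouse 22 against 15121 CPM in combination mouse 16, and to 30260 CPM in vehicle mouse 6 against 16535 CPM in vehicle mouse 3. The 11 genes of mitochondrial biogenesis had an r of 0.40 as a group: Tfam, which packages mitochondrial DNA, followed the members (3 genes above 0.5), and 4 genes ran below -0.5, among them Nrf1 and Gabpa, whose proteins bind the motifs named above. None of the complex II, tricarboxylic acid cycle, cytochrome oxidase assembly, biogenesis or mitochondrially encoded genes was called in any comparison by edgeR. The 8 tested hypoxia genes had an r of 0.91 as a group, with 6 above 0.5 and 1 below -0.5. The 14 glycolysis genes had an r of 0.71, with 8 above 0.5 and 5 below -0.5.

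The white and brown adipocyte markers and the depth of the library moved with the members too. The white adipocyte markers had an r of 0.87 (Spearman 0.91), and 6 of 6 had an r above 0.5. Their summed level was 6061 CPM in combination mouse 22, 8623 CPM in panobinostat mouse 13, 6417 CPM in trastuzumab mouse 12 and 5045 CPM in vehicle mouse 6, the highest tumour of each group. The 3 tested brown adipocyte markers had an r of 0.88 (Spearman 0.90), and 2 of them had an r above 0.5. The log2 total count had an r of 0.89 (Spearman 0.91), and combination mouse 22 had the largest total. Without combination mouse 22 and vehicle mouse 6, the 2 libraries farthest from the median, the r was 0.92 for white adipocytes, 0.91 for brown adipocytes, 0.82 for mitochondrially encoded genes and 0.86 for the total count. The other cell type markers ranged from -0.64 for endothelium to 0.61 for macrophages, with 0.49 for erythroid cells, 0.17 for luminal epithelium, 0.10 for pericytes, 0.07 for fibroblasts and -0.03 for skeletal muscle. The part of adipocyte content or depth in the shared movement was not tested.

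**Figure D5:**
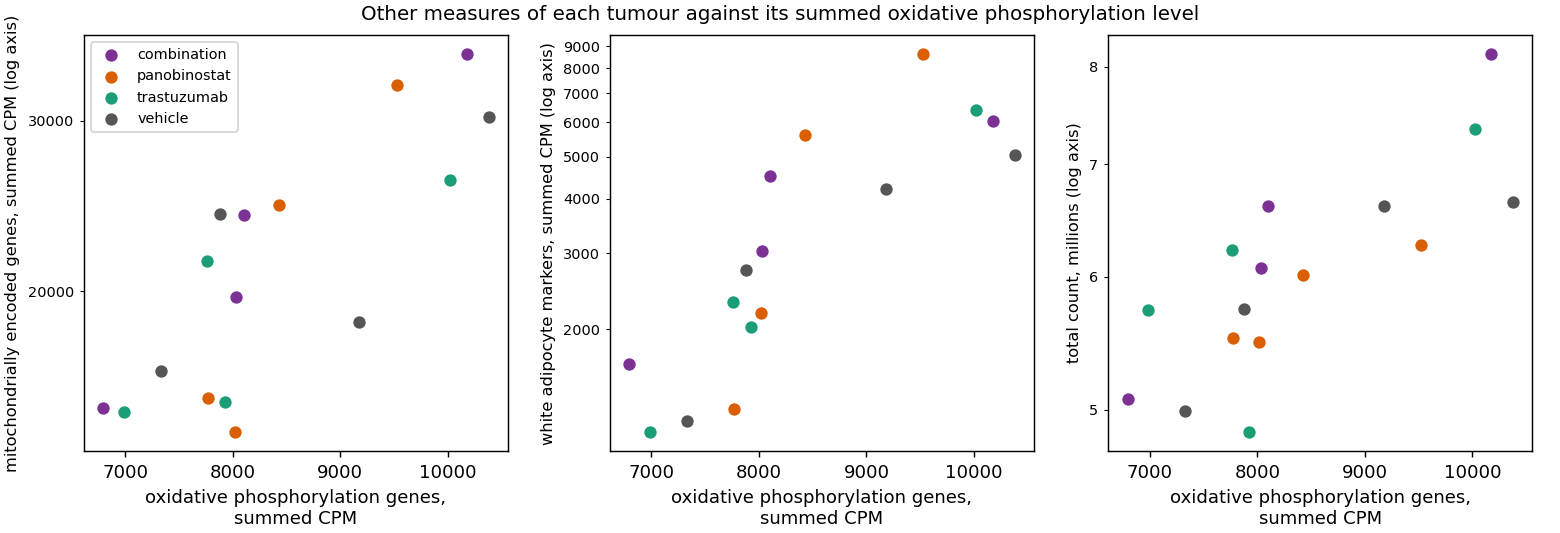
Summed CPM of mitochondrially encoded genes, summed CPM of white adipocyte markers and total count of each library, each on a log axis, against the summed CPM of the oxidative phosphorylation genes, with 1 point per tumour coloured by group. The tumours with 9525 CPM or more of members, 1 in each group, are the highest of their group in all panels.

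Genes that moved with or against the members differed in transcript length. The 391 other genes with an r above 0.9 had a median transcript length of 1326.5 bases, the 7200 between -0.5 and 0.5 one of 2547 bases, and the 372 below -0.9 one of 4072 bases. The members themselves had a median of 723 bases. Over the other genes the Spearman correlation of r with length was -0.24, and over the members it was -0.35; both are across genes, which are not independent replicates. The 6 genes most like the members by this r were 2010107E04Rik (0.98), Mrps21 (0.98), a protein of the mitochondrial ribosome, Grpel1 (0.98), a helper of mitochondrial protein import, Gemin7 (0.97), a member of the complex that assembles splicing particles, 2210016F16Rik (0.97) and Ppa1 (0.97), a pyrophosphatase. The 6 most opposed were Cdk13 (-0.98), a kinase of transcription, Zfp281 (-0.97), Usp32 (-0.97), a deubiquitinase, Plcb4 (-0.97), a phospholipase, Cdc27 (-0.97), a subunit of the anaphase-promoting complex, and Zfr (-0.97). These were the extremes among 15524 genes and are named for their r alone.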

How the data were processed

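RNA from 16 whole tumours was sequenced with an Illumina TruSeq RNA kit, per the labels' protocols. The authors deposited 1 table of raw counts for mouse genes, named by symbol. Per the submitters' processing notes, CASAVA 1.8.2, TopHat2, HTSeq and mm10 were used. Settings and a step separating human from mouse reads are not named there. A dot stood in place of a count for 1327 symbols in all panobinostat-treated libraries; these were left out, and none was a member.

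Counts were fitted with edgeR 4.0.16 in R 4.3.3 (quasi-likelihood F test, TMM scaling, filterByExpr, 1 mean per group over all 16 libraries), with Benjamini-Hochberg adjustment over the 15610 genes tested. DESeq2 1.42.0 and limma 3.58.1 served as alternatives, next to other scalings, filters, marker scores as covariates and leaving out each tumour. The averages compare the 8 tumours with a drug and the 8 without it. The SE of a change was the log2 change over the square root of F. Levels are TMM-scaled CPM. Marker scores for the covariates were mean log2 CPM, with TMM factors from all symbols with counts and not only the genes tested. Correlations used deviations of log2 CPM (prior count 2) from the group mean. Transcript lengths and overlaps came from the annotation in the reference, and 85 of 87 members matched by symbol and the other 2 by a listed synonym. The fit was tested on simulated counts. Members, lists and tests were chosen with earlier results of these data known. The rule for naming took each complex's extremes of level, the paralogue pairs, the 3 largest changes in each direction with panobinostat and genes near the threshold; others are said to be chosen afterwards, and those named by their r were ranked by it. Summed levels are described without the permutation test first planned for them. The labels name separate mice, so the p-values and 95% intervals of the fits measure spread between animals.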

Additional observations from a re-analysis of the deposited data

Results flagged for a closer look

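The check covered 144 sets of 4 tumours, each 1 member or 1 summed level of members in 1 group. Of these, 4 had a tumour far from the other 3 by Dixon's criterion at its 95% level, all 4 for single members. Chance flags about 1 in 20 such sets, and the sets share tumours and members, so they are not independent. Atp5k had 83.4 CPM in trastuzumab mouse 12, against 41.5 to 47.7 CPM in the other trastuzumab tumours. Ndufa10 had 79.2 CPM in the same tumour, against 34.1 to 37.1 CPM. Cox6b2 had 4.01 CPM in vehicle mouse 6, against 2.01 to 2.31 CPM in the other vehicle tumours. Ndufa4l2 had 11.4 CPM in the same tumour, against 7.02 to 7.22 CPM. Both tumours were the highest of their group in summed level, at 10023 CPM for trastuzumab mouse 12 and 10379 CPM for vehicle mouse 6.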

How the results depend on the processing

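The count of members called stayed at 0 in all 8 comparisons under DESeq2, limma voom, total-count or upper-quartile scaling and both other filters. The same held with the skeletal muscle and luminal epithelium scores as covariates and in every fit without a covariate that left out 1 tumour. Fits of only the groups compared also called 0 members, but were not made for the averages or the interaction. With the white adipocyte score as a covariate the count was 5 of 86 for the panobinostat average, against 2.76% of all genes called lower. It was 1 for the combination against vehicle (Cox8b), a share below the 1.93% of all genes called lower. For panobinostat against vehicle it was 2 (Cox8b and Ndufb10), with 253 genes called in all and 0.775% of all genes called lower. With the log2 total count as a covariate, added after the data were seen, it was 2 for the panobinostat average, a share near the 2.2% of all genes called lower. It was 3 for the combination against vehicle (Cox8b, Ndufa11 and Ndufb10), against 1.62% of all genes called lower. The cause was not tested. In the adipocyte-adjusted panobinostat average, leaving out 1 tumour gave 2 to 18 members, all lower, against 1.64% to 3.54% of all genes called lower. The count was 18 without combination mouse 22 and 10 without panobinostat mouse 8 (2.3% of all genes). It was 2 or 3 without combination mouse 2, 11 or 16, panobinostat mouse 4, 7 or 13, trastuzumab mouse 12 or 24, or vehicle mouse 6 or 29. Measured in CPM and not per length, the share of Cox7a1 was 2.85% (4.69% per kb) and that of Ndufa4l2 5.52% (2.75% per kb), as their lengths differ from those of their partners. When 1 tumour was left out, the members' median change changed sign in all 8 comparisons, from -0.13 to 0.04 for the panobinostat average and from -0.05 to 0.36 for the interaction. Counts over all genes moved more than 1.5 times under some settings: 3 to 253 for panobinostat against vehicle, 60 to 743 for the combination against vehicle, 5 to 230 for the combination against trastuzumab, 351 to 988 for the panobinostat average and 3 to 64 for the trastuzumab average. Leaving out 1 tumour gave 3 to 72, 202 to 395, 3 to 179, 329 to 480 and 2 to 33 in that order. DESeq2 called 12 genes for trastuzumab against vehicle. Depth limits the scarce forms most: Cox7a1 rests on 4 to 37 counts per tumour and Cox4i2 on 0 to 17. No paired analysis was possible because every mouse number occurs once over the 16 libraries.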
